A study of Physcomitrium patens with 8 samples.

Results

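In the moss Physcomitrium patens, 76 of 26610 genes were at least 2-fold lower in the PpanrKO line (KO) than in wild type (WT) in each of 4 conditions, while staying within 4-fold of the untreated level in WT under each of 3 treatments. They were chosen from the deposited normalized reads on the log2(value + 10) scale, among the 19821 genes whose mean over the 8 libraries reached 20 normalized reads. KO minus WT had to be -1 or less in each of the untreated, ABA, mannitol and dehydration pairs, and each WT treatment had to differ from the WT control by less than 2 log2 units. All 76 genes therefore passed the minimum by construction. Without the minimum, 2 further genes met the other conditions.

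Both genotypes are of the Gransden strain and were grown as chloronemata, the green filaments of a moss culture, for 6 days after subculture. Each genotype gave 1 library untreated, 1 after 1 h of ABA (1e-05 M), 1 after 1 h of 10% (w/v) mannitol, and 1 after drying in a desiccator until 70% of the fresh weight was gone. RNA of 3 biological replicates was pooled for each library, so there are 8 libraries with no replicate within a group. The sources used here do not say how the KO line was made or whether it is 1 clone, and they describe no mock transfer of control tissue.

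Abscisic acid (ABA) is the hormone by which land plants answer water shortage. In flowering plants, binding of the hormone to its receptors blocks a class of protein phosphatases, which frees SnRK2 kinases to switch on genes through transcription factors. In moss protonemata, treatment with ABA is known to raise tolerance of drying. The series title presents the targeted gene as a regulator of ABA responses that flowering plants lack.

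The 76 genes are known here by ID and position only. The deposited gene models (build V3.0, Phytozome v10) pair no ID with a name or function, and the RefSeq gene table at hand shared 0 IDs with them, whether by V3.0 or by older V1.6 ID. No role is given to any gene below, no pathway list could be applied, the markers of chloronemata could not be checked, and the targeted gene is not identified. Total reads ran from 22516957 to 38767634 per library. The values carry no correction for gene length, so levels are compared between libraries and not between genes.

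The difference between the genotypes was large for most of the 76 genes and was present before any treatment. In the untreated libraries the median KO minus WT difference of the members was -2.26 log2 units, and 43 of 76 were at least 4-fold lower in KO (0.843% of all genes tested). It was -3.35 with ABA, where 66 members were at least 4-fold lower (6.41% of all). With mannitol it was -2.70, with 48 such members (4.13% of all), and after dehydration -2.93, with 53 (5.6% of all). Over all genes tested the medians were 0.32, 0.38, 0.00 and 0.28 in the same order. These differences chose the members, so they are a description and carry no test. In whole tissue, fewer cells of a type and less RNA per cell cannot be told apart. Among all genes tested, 3.22% were at least 2-fold lower in KO when untreated, 12.7% under ABA, 10.1% under mannitol and 12% after drying, and 1.34% (266 genes) met all 4 limits at once.

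**Figure D1:**
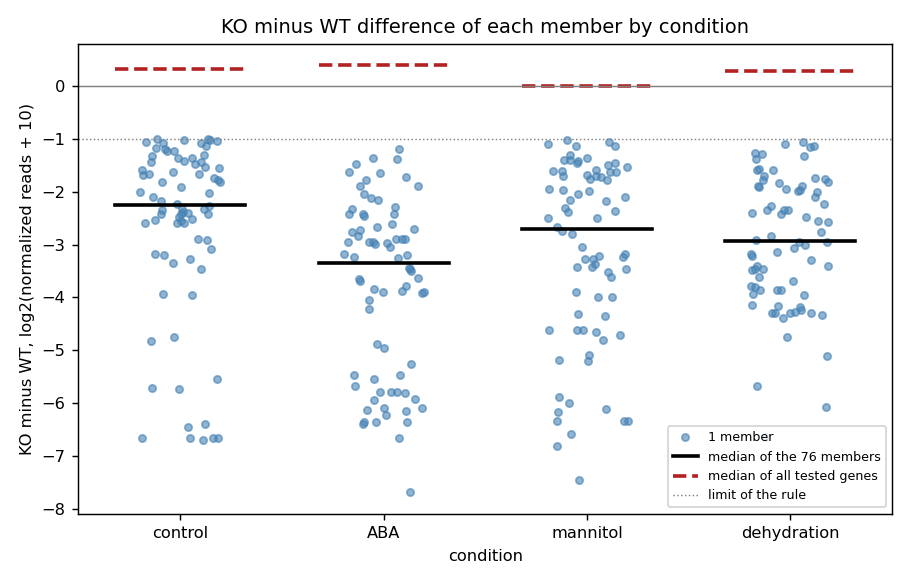
KO minus WT difference of each of the 76 members on the log2(normalized reads + 10) scale (y axis) in the 4 conditions (x axis), with 1 point per gene. Black bars are the members' medians, from -2.26 in the control to -3.35 with ABA, red dashed bars are the medians of all genes tested, and the dotted line is the limit of -1 that chose the members.

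Of the 266 genes lower in KO in all 4 conditions, 190 were left out because a WT treatment moved them 4-fold or more from the WT control, upward under at least 1 treatment in 168 of them. The medians of KO minus WT of these 190 were -1.73 untreated, -6.56 under ABA, -4.28 under mannitol and -5.39 after drying. Without the 18 members of parallel reads, described with the runs of members, the untreated median of the members was -1.77. In the opposite direction, 327 genes met the mirrored rule, with KO at least 2-fold higher in all 4 conditions. The rule fixes the sign and part of the size of these values, and they are set side by side without a test.

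The members differ in how much signal was left in KO. Taking the mean of the 4 KO libraries as a percent of the mean of the 4 WT libraries, the median member kept 6.92%. The lowest kept 0% and the highest 32.9%. By this measure 16 members kept under 1%, 10 kept 1 to 5%, 33 kept 5 to 20% and 17 kept more. In 69 of 76 members every KO library lay below every WT library, whatever the treatment. Among all genes tested this held for 3.34%. The rule set KO below WT within each condition and bounded the WT treatments, so the members' share is a description. In the other 7 members the ranges overlapped across conditions, as in Phpat.021G016100 below, although KO was lower within each condition.

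**Figure D2:**
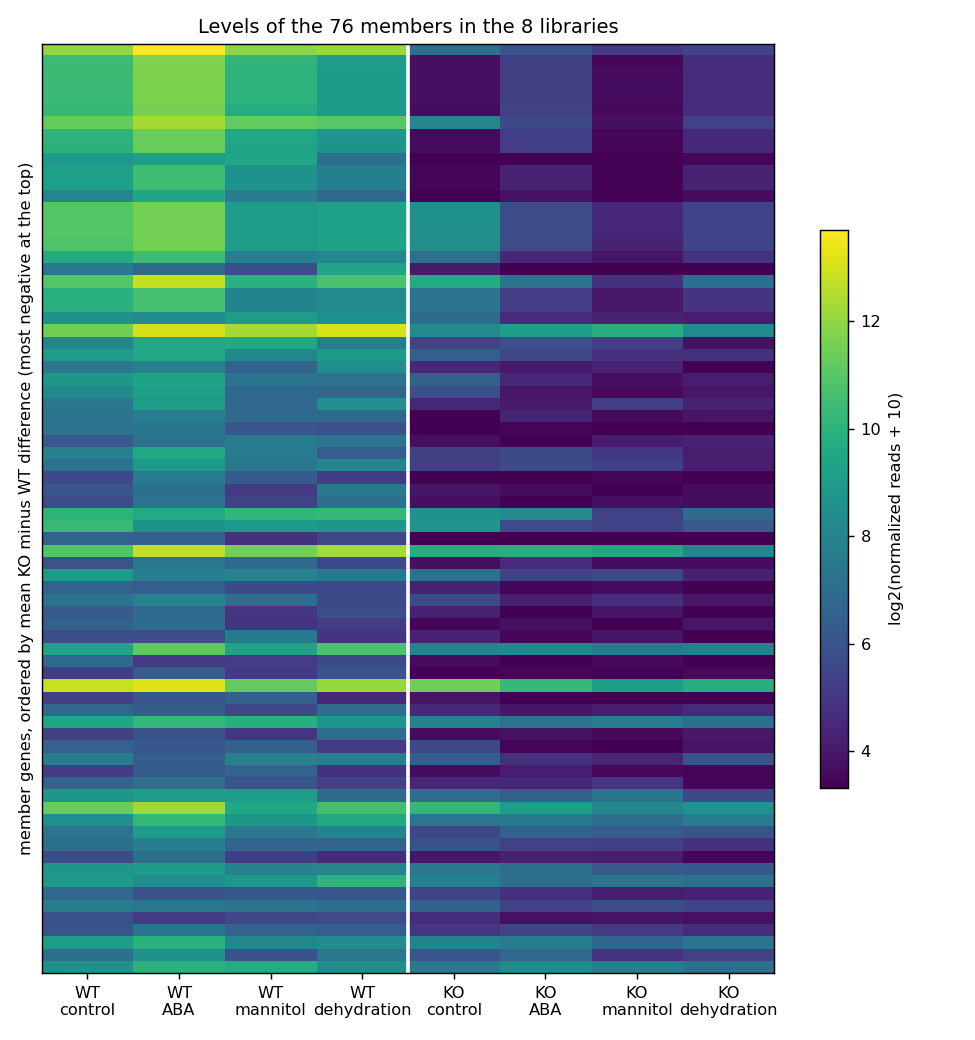
Level of each member (rows, ordered by the mean KO minus WT difference, the most negative at the top) in the 8 libraries (columns) as log2(normalized reads + 10), shown by colour. The 4 KO columns on the right are darker than the 4 WT columns in nearly every row. In 69 of 76 members the highest KO library lies below the lowest WT library. These values chose the members.

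The deepest mean difference was in Phpat.001G121200 (chromosome 1, 21608510 to 21609769, plus strand, build V3.0, the build of all positions here). It had 4104, 13289, 3772 and 4492 normalized reads in the control, ABA, mannitol and dehydration libraries of WT, and 135, 54.8, 23.9 and 35.6 in KO. The lowest WT library, at 3772, lay far above the highest KO library, at 135. KO was 30.5-fold lower in the control (95% counting interval 25.5 to 36.8), 243-fold lower with ABA (187 to 320), 157-fold lower with mannitol (113 to 228) and 126-fold lower after dehydration (91.9 to 179). All such intervals cover counting error only, since PCR copies are not independent molecules and no group has a second library. With ABA this gene was 1.69 log2 units above the control in WT and 1.16 below it in KO.

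Phpat.004G001900 (chromosome 4, 277652 to 280395, plus strand) had 2389, 5087, 2340 and 2020 normalized reads in the WT libraries in the same order, and 252, 40.6, 3.52 and 29.9 in KO. The untreated KO library was 9.46-fold lower (8.26 to 10.9), and the mannitol library, with 5 reads against 3080 in WT, was 664-fold lower (284 to 2047). WT differed little between control, mannitol and dehydration, whereas KO under each treatment lay well below the KO control. Phpat.003G099200 (chromosome 3, 17292007 to 17294643, minus strand) had the widest range of differences over conditions, 4.30 log2 units. Its normalized reads were 1958, 6980, 975 and 1678 in WT and 824, 141, 19.0 and 128 in KO, so the gap ran from 2.38-fold in the control (2.18 to 2.59) to 51.2-fold with mannitol (35.1 to 78.1).

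A further 3 of the 5 members with the most normalized reads in WT kept a clear signal in KO. Phpat.010G072400 (chromosome 10, 13114724 to 13115922, plus strand) had 2850, 8318, 4970 and 8534 in WT and 286, 552, 875 and 310 in KO. It was above the control under every treatment in both genotypes, and KO was 5.68-fold lower with mannitol (5.35 to 6.04) and 27.6-fold lower after dehydration (24.7 to 30.9). Phpat.021G016100 (chromosome 21, 3294476 to 3297469, minus strand) had 7163, 9274, 2335 and 4200 in WT and 2773, 1233, 533 and 879 in KO. Its untreated KO level was above the WT level with mannitol, so the genotypes overlap across conditions. Within conditions KO was 2.58-fold lower in the control (2.47 to 2.70) and 7.52-fold lower with ABA (7.08 to 8.00).

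Phpat.013G041600 (chromosome 13, 9192058 to 9195168, plus strand) had 1881, 6905, 2919 and 4962 normalized reads in WT and 848, 884, 704 and 265 in KO. After dehydration it was 1.39 log2 units above the control in WT and 1.64 below it in KO, which made the gap 18.7-fold there (16.6 to 21.2) against 2.22-fold in the control (2.04 to 2.41). In KO the control, ABA and mannitol libraries lay close together, and the dehydration library was the low one.

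**Figure D3:**
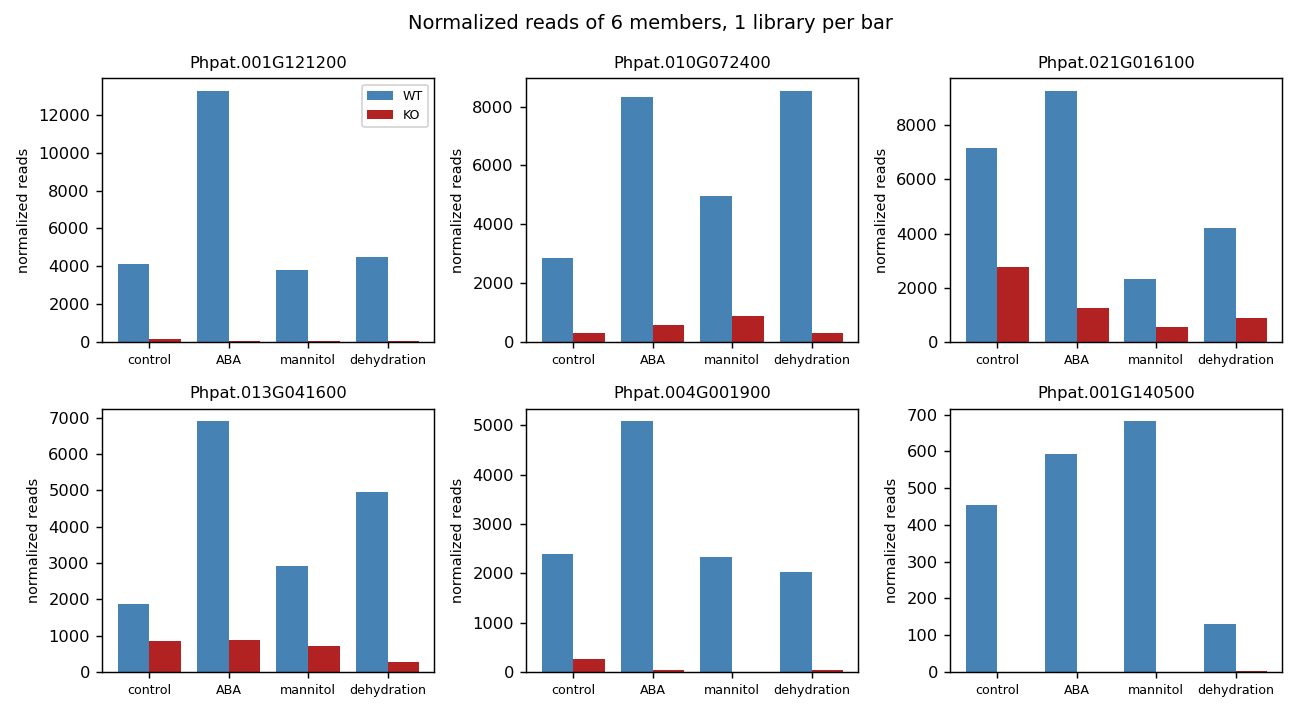
Normalized reads (y axis, from 0, its own scale in each panel) of the 5 members with the highest mean in WT and of Phpat.001G140500 in the 4 conditions (x axis), 1 library per bar, WT in blue and KO in red. In Phpat.001G121200 no KO bar reaches 136, while in Phpat.021G016100 the untreated KO bar of 2773 is higher than the WT mannitol bar of 2335.

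At the other end, 6 members had 3 reads or fewer in every KO library, against 0.474% of all genes tested. Phpat.001G140500 (chromosome 1, 24268835 to 24275759, minus strand) was the only one of them whose WT libraries all reached 100 reads, a pattern held by 0.0101% of all genes tested. In the order used above, WT held 471, 367, 898 and 106 reads of this gene and KO held 0, 0, 0 and 1. With 3 reads per library in place of 0, KO was at least 137-fold lower in the control, 209-fold with ABA and 323-fold with mannitol. After dehydration the ratio was 139 (24.5 to 5556) with 1 KO read. Genes this low in KO can reach the minimum mean only through WT, and the rule sets KO below WT. Both comparisons with all genes tested are therefore a description.

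The other 5 of these members, listed here for that count after their values were seen, had few reads in WT as well. Phpat.005G022300 (chromosome 5, 3772251 to 3775118, plus strand) was read 95, 50, 25 and 31 times in WT and 0 times in all 4 KO libraries. With 3 reads in place of 0 the KO control was 27.7-fold lower (lower 95% counting limit 22.1). Phpat.026G031200 (chromosome 26, 4994256 to 4998925, minus strand) had 148, 95, 75 and 40 in WT and 0, 1, 0 and 0 in KO. Phpat.003G135800 (chromosome 3, 23180086 to 23181686, minus strand) had 42, 109, 91 and 21 in WT and 0, 0, 2 and 0 in KO. Phpat.015G032900 (chromosome 15, 4735117 to 4736169, minus strand) had 104, 15, 36 and 33 in WT and 2, 0, 3 and 0 in KO. The last, Phpat.006G086100, is described with its neighbour below. Reads this few cannot tell absence in KO from a low level.

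Phpat.003G026400 (chromosome 3, 4570850 to 4572837, plus strand) was among the 2 lowest members after dehydration. WT held 180, 62, 61 and 538 reads and KO held 6, 0, 0 and 0. The WT dehydration library was the highest, and the KO library of the same condition was at least 236-fold lower with 3 reads in place of 0. In the control the ratio was 26.2 (11.8 to 72.5).

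At the shallow end lie the members nearest to the limit of the rule. The 3 just inside were Phpat.024G045300 (chromosome 24, 8538876 to 8540980), Phpat.026G040800 (chromosome 26, 7247653 to 7253746) and Phpat.020G020100 (chromosome 20, 2917279 to 2919128), whose difference nearest to 0 was -1.01, -1.02 and -1.02, in the control each time. The 3 just outside were Phpat.025G015900 (chromosome 25, 2761519 to 2763109), Phpat.004G085700 (chromosome 4, 14891263 to 14900515) and Phpat.017G073800 (chromosome 17, 13170899 to 13175129), at -0.997, -0.987 and -0.982. For the limit on the WT response, Phpat.022G012200 was the nearest inside, at -1.90 log2 units after dehydration, and Phpat.001G044300 (chromosome 1, 7746501 to 7748377) the nearest outside, at -2.01 after dehydration.

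The steadiest difference over the conditions was in Phpat.014G043200 (chromosome 14, 7247497 to 7251737, plus strand). Its normalized reads were 421, 489, 235 and 262 in WT and 164, 124, 65.5 and 61.8 in KO, a gap of 2.57-fold in the control (2.13 to 3.11) and 4.24-fold after dehydration (3.21 to 5.68). Next came Phpat.002G067600 (chromosome 2, 10786967 to 10789275) and Phpat.023G056000 (chromosome 23, 10427868 to 10433374), with ranges of 0.75 and 0.78 log2 units but at most 102 reads in any library. The median range over the 76 members was 2.05 log2 units, against 1.17 over all genes tested.

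The gap was most often widest with ABA. In 37 of 76 members the ABA pair showed the most negative difference, against 20.2% of all genes tested. In 14 members it was the mannitol pair (42.4% of all), in 14 the dehydration pair (19.5%) and in 11 the control pair (18%). In 38 members the control pair had the highest KO minus WT difference, which in the members is the smallest gap. The control pair was highest in 32.6% of all genes tested, where a high difference can also mean more signal in KO. The rule used these contrasts and bounded the WT side, so the shares are a description. The shares also depend on the deposited scaling, under which the median difference of all genes was 0.38 with ABA and 0.00 with mannitol. They were not recomputed with another scaling.

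Within each genotype, the treatments were read against its own control. Each treatment of a genotype shares its control library with the other treatments, and the rule keeps the WT responses within 4-fold. The KO minus WT limits of the rule use the same libraries and so constrain the KO responses too. The members' counts and medians under each treatment are therefore a description. In WT with ABA, 32 members were at least 2-fold above the control and 4 below, against 16.7% and 11% of all genes tested. In KO with ABA, 8 were above and 21 below the KO control, against 8.29% and 4.97%. The members' median was 0.76 log2 units in WT and -0.41 in KO, where all genes had 0.18 and 0.23.

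With mannitol, 6 members were at least 2-fold above the control in WT and 20 below, against 21.2% and 6.68% of all genes. With median-of-ratios scaling, which moved the WT mannitol median of all genes by -0.47, 3 were above and 36 below. In KO 1 was above and 25 below, against 9.1% and 9.56%. The members' medians were -0.42 in WT and -0.29 in KO, and those of all genes 0.47 and 0.13. The 1 member above was Phpat.010G072400, by 1.58 log2 units. The second highest, Phpat.011G020200 (chromosome 11, 3413023 to 3417999, plus strand), was 0.75 above, with 37.5 normalized reads in the KO control and 69.7 with mannitol.

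After dehydration, 10 members were at least 2-fold above the control in WT and 32 below, against 10.3% and 20.6% of all genes. In KO 1 was above and 32 below, against 1.97% and 10.8%, or 5 and 26 with median-of-ratios scaling. The members' medians were -0.71 in WT and -0.74 in KO, and those of all genes -0.20 and -0.25. Without the 18 members of parallel reads, 14 of the other 58 (24.1%) were below and 10 above in dried WT, with a median of -0.33, and in KO 24 were below and 0 above, with a median of -0.74. Across treatments, 18 members were at least 2-fold below the KO control under all 3, against 2.5% of all genes tested. They are not the same genes as the 18 members of parallel reads. They include all 8 members of the chromosome 11 run described below, whose reads are parallel. In WT, 13 of 76 stayed within 2-fold of the control under all 3 treatments, against 48.7% of all genes.

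**Figure D4:**
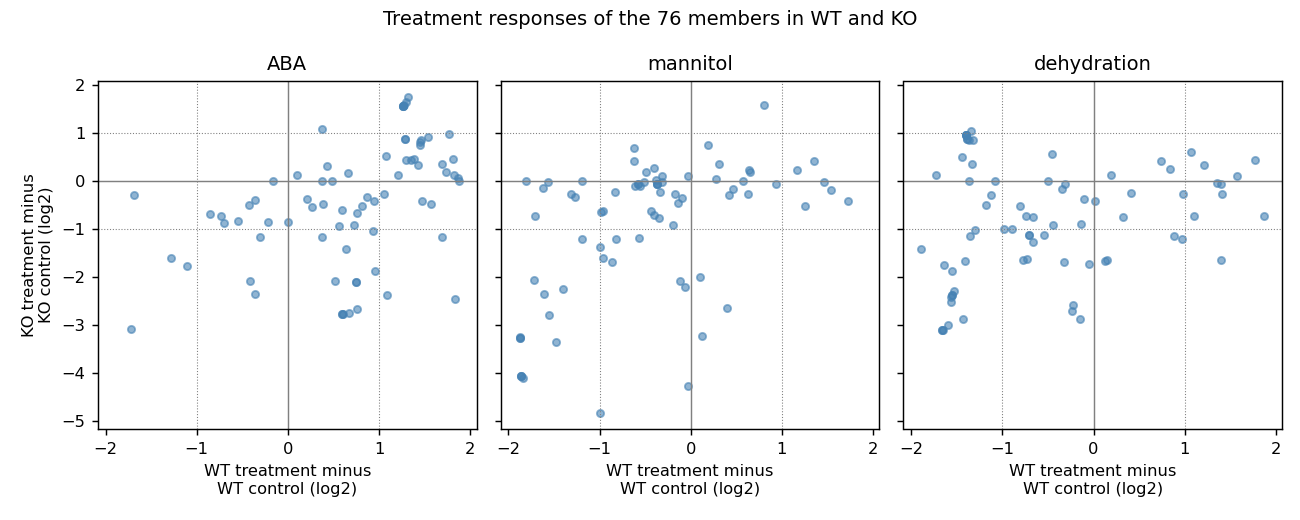
Log2 response of each member to ABA, mannitol and dehydration, in WT (x axis) and in KO (y axis), each against its own genotype's control library, with 1 point per gene and dotted lines at 2-fold. With ABA 32 members lie right of the 2-fold line in WT, and 21 lie below the 2-fold line in KO. Tight clumps of points are neighbouring genes with parallel reads.

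The member with the lowest KO response to ABA, Phpat.003G026000 (chromosome 3, 4333208 to 4337628, plus strand), was lower under every treatment in both genotypes. It had 1304, 389, 460 and 433 normalized reads in WT and 425, 41.6, 32.4 and 65.5 in KO. The KO responses were -3.08, -3.36 and -2.52 log2 units, and those of WT -1.72, -1.48 and -1.57. Its untreated KO level was close to the treated WT levels, so the genotypes overlap across conditions in this gene.

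By position, the 76 members lay on 24 of the 27 chromosomes and on scaffold_51, a piece not placed on a chromosome. Chromosome 11 held 14 of them (18.4%, against 4.19% of all genes tested), and scaffolds held 8 (10.5%, against 0.343%). Without the 18 members of parallel reads, which include all those on scaffolds, chromosome 11 held 4 of the other 58. With at most 2 gene models between, 24 members (31.6%) had another member as a neighbour, against 1.42% of all genes tested. These 24 form 6 runs. A gene of the 190 with a strong WT response was a neighbour of 4 members (5.26%), against 4.04% of all genes tested. The members had a median gene span of 1968 bp from start to end, introns included, against 3089 bp for all genes tested, and 48 of 76 (63.2%) had an older V1.6 model, against 77.9%. Without the 18 members of parallel reads the median span was 2402.5 bp.

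The longest runs, with a pair of genes that mirrors one of them, hold 18 of the members. On chromosome 11, 8 members lay within 100 kb (4765053 to 4865313) among 11 gene models. On scaffold_51, 8 members stood side by side (50350 to 99920, all on the plus strand), and a pair on chromosome 11 (2385571 to 2391251, minus strand) had nearly the same reads as some of them. These 18 members held 2 V1.6 models, against 46 among the other 58.

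On scaffold_51, Phpat.1Z052900 (97961 to 99920) was read 1381, 1992, 1352 and 407 times in WT and 3, 31, 4 and 17 times in KO. Phpat.1Z052300 (55047 to 57006) had the same 8 counts. On chromosome 11, Phpat.011G015400 (2389398 to 2391251) had 1381, 1992, 1351 and 406 in WT and equal counts in KO, and Phpat.011G015300 (2385571 to 2387273) had 1417, 2040, 1423 and 417. Whether the same reads were assigned to several copies was not tested, so all values in these runs are uncertain.

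The other 6 on the scaffold ran in parallel at lower counts, with 0.194 to 0.954 times the reads of Phpat.1Z052900 over the WT libraries. They are Phpat.1Z052200, Phpat.1Z052400, Phpat.1Z052500, Phpat.1Z052600, Phpat.1Z052700 and Phpat.1Z052800, and Phpat.1Z052700 lies inside the span of Phpat.1Z052600. None of the 10 genes had more than 4 reads in the KO control or KO mannitol library, or more than 33 in any KO library. The lowest untreated differences of all members were here. Phpat.011G015300 was 413-fold lower in the KO control (141 to 2006) and Phpat.1Z052600 555-fold lower (153 to 4592). Within KO, Phpat.1Z052600 had 2 reads in the control and 33 with ABA, the highest KO response to ABA among the members (1.75 log2 units). Phpat.1Z052800 was next, with 2 and 30 reads (1.65).

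All 10 gene models of scaffold_51 passed the minimum, and the 2 that are no members lie just before the run. Phpat.1Z052100 (42834 to 43849) was read 18, 7, 65 and 2 times in WT and 27, 22, 35 and 6 times in KO. Phpat.1Z052000 (31647 to 32579) had 932 in the WT control and 362 in the KO control, and at most 31 in any treated library. The genes with hardly any KO reads began at Phpat.1Z052200 and ran to the last gene model of the scaffold.

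The chromosome 11 run behaved otherwise in KO. Phpat.011G028900 (4864384 to 4865313, minus strand) was read 2021, 1827, 695 and 495 times in WT and 323, 46, 17 and 35 times in KO, and Phpat.011G028800 (4859135 to 4860064) had the same 8 counts. KO was 5.47-fold lower in the control (4.86 to 6.17), 67.9-fold with ABA (50.7 to 93.1), 44.1-fold with mannitol (27.3 to 76.1) and 18.6-fold after dehydration (13.2 to 27). Each KO treatment library was far below the KO control. Phpat.011G028600 and Phpat.011G028800 had the lowest KO responses to dehydration among the members, both -3.10 log2 units, as did Phpat.011G028900 with its identical counts.

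Phpat.011G028100 and Phpat.011G028200, each 345 bp in span, had identical counts as well, 976 in the WT control and 134 in the KO control. Phpat.011G027900, Phpat.011G028300 and Phpat.011G028400 followed the same course. Over the WT libraries the 7 other genes had 0.218 to 1.00 times the reads of Phpat.011G028900. Inside the run, 3 gene models are no members. Phpat.011G028000 was read 96, 66, 21 and 3 times in WT and 18, 0, 1 and 6 times in KO, and Phpat.011G028700 had 100, 70, 23 and 4 and 19, 0, 1 and 6, so both missed the KO minus WT limit in the dehydration pair, and both were over 4-fold below the control in dried WT. Phpat.011G028500 (4842697 to 4849681) had 340, 162, 525 and 184 in WT and 392, 1081, 694 and 379 in KO, higher in KO in every condition.

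**Figure D5:**
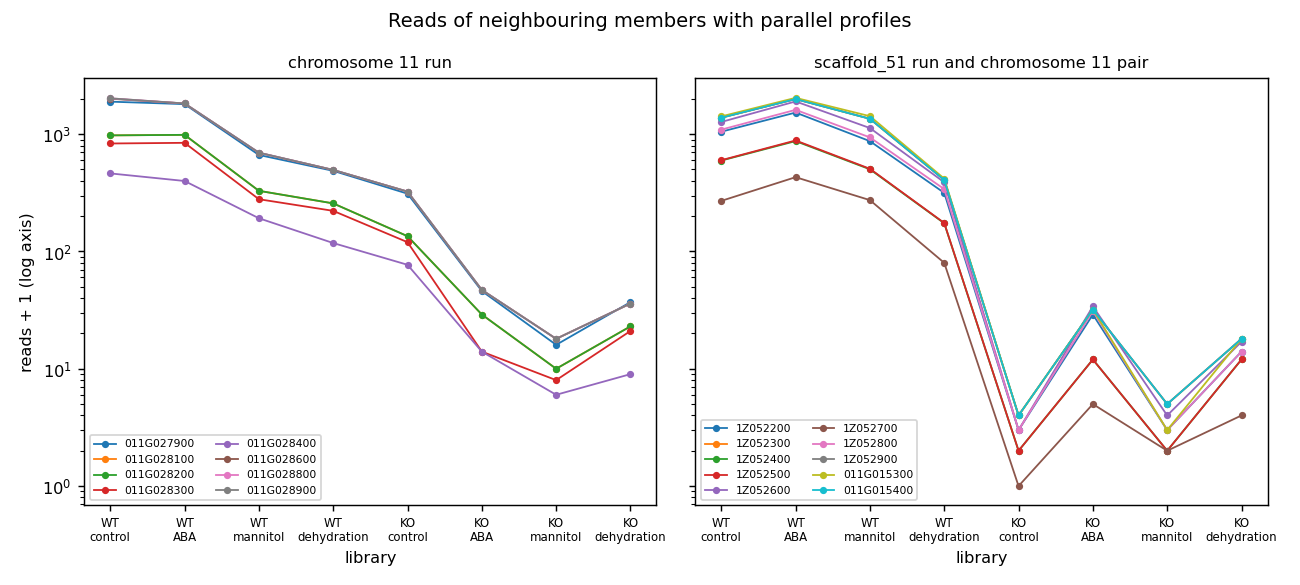
Reads plus 1 (y axis, log scale) in each of the 8 libraries (x axis) for the 8 members of the chromosome 11 run (left) and for the 8 members on scaffold_51 with the chromosome 11 pair (right), 1 line per gene, the lines only joining points of a gene. On the left the KO control holds 76 to 323 reads and every KO treatment library at most 46. On the right the KO control holds at most 3 reads and KO ABA up to 33.

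The 4 remaining runs had 2 members each. One is the chromosome 11 pair above. On chromosome 6, Phpat.006G086000 (15394196 to 15397045) and Phpat.006G086100 (15397131 to 15397845) lie end to end on the minus strand. The first was read 67, 83, 237 and 119 times in WT and 3, 0, 11 and 11 times in KO, and the second 26, 44, 32 and 43 in WT and 0, 1, 1 and 2 in KO. Next to them, Phpat.006G086200 (15468571 to 15470020) missed the KO minus WT limit in the control pair alone, and was over 4-fold above the control in WT with ABA and with mannitol. Its difference was -0.94 in the control and -2.51, -3.02 and -2.49 under the treatments.

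On chromosome 17, Phpat.017G073600 (13142380 to 13143980, plus strand) was read 531, 472, 364 and 403 times in WT and 72, 39, 25 and 18 times in KO. Its neighbour Phpat.017G073700 (13157862 to 13161057, minus strand) had 2546, 2920, 973 and 1204 in WT and 1055, 593, 386 and 397 in KO. The next gene model, Phpat.017G073800 on the same strand, had 2817, 3170, 1059 and 1290 in WT and 1243, 651, 444 and 447 in KO. It ran in parallel with Phpat.017G073700 and is no member only because its control difference was -0.98. On chromosome 14, Phpat.014G043000 (7230702 to 7231701, minus strand) was read 47, 28, 227 and 16 times in WT and 9, 1, 7 and 0 times in KO. It lies near Phpat.014G043200, and Phpat.014G043100 between them (489, 225, 640 and 201 reads in WT, 493, 486, 608 and 620 in KO) was not lower in KO in the control, with ABA or after dehydration.

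In all, 11 members fell into 4 groups with equal or nearly equal reads, within 5 reads or 5% in every library. With each group counted once, 69 remain. The other members of parallel reads, at lower counts, are still counted separately there, so 69 is not a number of independent signals. Without the 18 members of parallel reads, the other 58 had median KO minus WT differences of -1.77 untreated, -2.95 under ABA, -2.07 under mannitol and -2.34 after drying. Of these 58, 51 had every KO library below every WT library, and 6 had another member as a neighbour. With ABA, 22 were at least 2-fold above the control in WT, and in KO 1 was above and 13 below. With mannitol, 6 were above and 12 below in WT, and 1 above and 17 below in KO. Of the 8 members that were higher with ABA in KO, 7 thus belong to the 18. The 18 were taken by position. Phpat.011G047100 (chromosome 11, 8124180 to 8124620), named here after its values were seen, is among the 58. Its reads followed the course of the chromosome 11 run at lower counts, with 311, 365, 141 and 78 in WT and 43, 6, 3 and 6 in KO.

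With limma fitted to the 8 libraries (treatment plus genotype, Benjamini-Hochberg over 19821 genes at 0.05), 332 genes (1.67%) were called lower in KO, 72 of the members among them, and 741 higher. With median-of-ratios scaling the calls were 308 lower and 319 higher. edgeR's quasi-likelihood test on the whole reads called 353 (1.78%), with 69 members. The same contrast chose the members, so nothing is read from these counts. Leaving out 1 pair of libraries also leaves fewer residual degrees of freedom. limma then called 1336 genes lower without the control pair, 4 without mannitol and 18 without dehydration. Without the ABA pair it called 0 (3557 genes in either direction at an unadjusted p under 0.05; edgeR was not run there). All 76 members had a negative estimate each time, which the rule fixed in advance.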

How the data were processed

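Per the labels, polyadenylated RNA pooled from 3 biological replicates per group was reverse transcribed with random primers into 8 libraries. Tools listed without versions in the submitters' processing notes are TopHat2, Trimmomatic, FastQC, bedtools and SAMtools. The normalization method and the use of strand in counting are not given in the sources used here. The deposited abundance signal is, in each library, a whole number of reads times 1 factor. Dividing by that factor gave whole reads for 100% of the values (within 0.01 read). Positions were read from the deposited gene models.

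Differences are on the log2(value + 10) scale. Fold intervals are exact 95% intervals of the ratio of reads conditional on their sum, scaled by the library factors. In the folds 3 reads stand in for 0, while the intervals use the 0 as counted. The additive fits used limma 3.58.1 (trend) and edgeR 4.0.16 with the deposited scaling as offset in R 4.3.3. They were also run on simulated counts. Those counts held no treatment effects and no genotype differences specific to a condition, so they do not check the fits under such differences. Other values were computed with Python 3.11.15. As no group has a replicate library, the residual spread behind the p-values is how far the KO minus WT difference varies between conditions. That spread mixes genotype differences specific to a condition with variation between libraries of pooled RNA, and the additive fit cannot separate them. Named genes follow a fixed rule: the 2 lowest differences in each condition, the 5 highest WT means, the members with 3 reads or fewer per KO library and 100 or more per WT library, all runs (the 4 runs of 2 tied), the 3 smallest and 3 largest ranges, the 2 highest and 2 lowest KO responses per treatment, and the genes nearest the threshold. The members, rule and alternatives were chosen with earlier results of these data known. No sequence was printed because none was supplied.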

Additional observations from a re-analysis of the deposited data

Results flagged for a closer look

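Among the named members, 5 had responses of at least 2-fold in opposite directions in WT and KO under 1 and the same treatment. As every group is a single library, the differences were not tested. With ABA, the log2 response was -1.16 in KO and 1.69 in WT for Phpat.001G121200, -2.47 and 1.83 for Phpat.003G099200, and -2.37 and 1.09 for Phpat.004G001900. After dehydration it was -1.64 and 1.39 for Phpat.013G041600. For Phpat.1Z052600 it was 1.03 in KO and -1.34 in WT, with 2 KO reads before drying and 16 after it. Over all 76 members, ABA left 3 at least 2-fold above the control in WT and 2-fold below it in KO, against 0.843% of all genes tested, and these are the 3 genes given here. After dehydration 1 of the 76 was higher in WT and lower in KO, against 0.565% of all genes, and 1 was the reverse, against 0.318%. The rule used values of the same libraries, so these shares are a description.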

How the results depend on the processing

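The number of members depends on the settings of the rule. It was 88 with a pseudocount of 1, 103 with median-of-ratios scaling (60 of the 76 kept), 46 with a pseudocount of 50 (41 kept), 50 with a minimum mean of 100, 46 and 31 with limits of -1.5 and -2, 58 where the upper counting limit of the ratio had to be at most 0.5, 13 with WT held within 2-fold and 266 with WT unrestricted. Leaving a pair of libraries out of the KO minus WT limits gave 234 (control), 110 (ABA), 144 (mannitol) and 100 (dehydration). The minimum mean still used all libraries. A left-out treatment also lost its WT limit, whereas without the control pair the WT limits still used the WT control.

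Over the 76 members, the median differences in control, ABA, mannitol and dehydration were -2.67, -4.64, -4.35 and -4.07 with a pseudocount of 1, and -1.39, -2.25, -1.60 and -1.77 with 50. Median-of-ratios scaling gave -2.51 in the control, where it moved the median of all genes by -0.34. It moved that median by -0.38 with ABA and -0.28 after dehydration. No median changed sign, and all 273 values of 39 named members under 7 settings stayed below 0. The rule fixed these signs in advance for the pseudocounts and the left-out pairs. Only the scaling could have changed a sign.

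Members at 0 reads in every KO library numbered 1, and at 10 or fewer 17. In KO, members at least 2-fold above the control were 15 (ABA), 5 (mannitol) and 15 (dehydration) with a pseudocount of 1, and 0 with ABA and 0 after dehydration with 50, where 18 were below after dehydration; median-of-ratios scaling gave 5 above after dehydration. Without the 18 members of parallel reads, chosen after seeing the data, 6 had a member as neighbour, 13 were below and 1 above with ABA, and 0 above after dehydration.

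limma called 0 genes lower without the minimum (6750 in either direction at an unadjusted p under 0.05), 1336 without the control pair, 0 without ABA, 4 without mannitol and 18 without dehydration. The causes were not tested. Replicates could not be paired, because the libraries carry no replicate numbers to pair on. The limma fit compares the genotypes within conditions through its treatment term, and so pairs the libraries by condition. At the counting limit 18 of the 76 did not keep a 2-fold gap; among them are genes with few reads (Phpat.002G067600, 50 and 14 in the control pair) and deeply read ones with folds near 2 (Phpat.017G073700, 2546 and 1055).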
